A study of Mus musculus with 6 samples.

Results

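The genes described here are 9 checkpoint ligands and inhibitory receptors of myeloid cells, chosen by symbol from the deposited table of 53647 genes: Cd274, Pdcd1lg2, Lgals9, Nectin2, Vsir, Havcr2, Lilrb4a, Sirpa and Cd200r1. Each symbol had 1 row. Their RNA was measured in macrophages from orthotopic pancreatic ductal adenocarcinomas of C57BL/6 mice, in 3 libraries of cells sorted as Cxcr4+ and 3 libraries of cells sorted as Cxcr4-. The labels enter Cxcr4+ or Cxcr4- as the genotype, but it is a sorting gate on the chemokine receptor and not an allele. No treatment beyond the tumour model is labelled, and both groups share it. The labels name neither the tumour line, the age of the mice, the sorting markers of the macrophages nor whether each library is a mouse of its own, so the tests weigh only library-to-library spread, which may be technical.

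Checkpoint ligands sit on antigen-presenting and tumour cells and dampen lymphocytes through receptors such as PD-1. PD-L1 (Cd274) and PD-L2 (Pdcd1lg2) bind PD-1, galectin-9 (Lgals9) binds TIM-3, and nectin-2 binds the lymphocyte receptor CD226 and its inhibitory relatives. VISTA (Vsir) acts both as a ligand and as a receptor. TIM-3 (Havcr2), gp49B (Lilrb4a), SIRP alpha (Sirpa) and the CD200 receptor (Cd200r1) act within the myeloid cell itself: SIRP alpha restrains phagocytosis of cells that carry CD47, and many such receptors recruit the phosphatases SHP-1 and SHIP-1.

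Total estimated counts ran from 52214239 to 55740671 in the Cxcr4+ libraries and from 46444934 to 50218371 in the Cxcr4- libraries. Cxcr4 itself, the sorted gene, had 9.18, 9.04 and 9.59 FPKM (fragments scaled to gene length and library depth) in Cxcr4+ libraries, against 8.56, 5.97 and 7.73 FPKM in Cxcr4- libraries, higher in every Cxcr4+ library but not past edgeR's test (log2 fold change 0.27, adjusted p = 0.999). The Cxcr4 value was 0.17 without the libraries numbered 2. Leaving out Cxcr4- replicate 2 alone gave 0.11, and leaving out Cxcr4- replicate 1 alone gave 0.44. The 7 macrophage markers, Lyz2 and Cd68 among them, summed to 7369.9 to 9194 FPKM in Cxcr4+ and 6566 to 7835 FPKM in Cxcr4- libraries. Markers of T cells summed to 0.00946 to 0.102 and 0.0161 to 0.0672 FPKM, with Cd8a and Trac at 0 in every library, and those of dendritic cells to 0.0561 to 0.178 and 0.126 to 0.145 FPKM. Neutrophil markers summed to 6.62 to 9.34 FPKM in Cxcr4+ and 6.94 to 10.2 FPKM in Cxcr4- libraries, with S100a9 and Camp at 0. Epithelial markers summed to 1.15 to 2.45 FPKM in Cxcr4+ libraries, and between 2.19 and 4.5 FPKM in Cxcr4- libraries. Fibroblast markers summed to 15.3, 2.78 and 3.63 FPKM in Cxcr4+ replicates 1 to 3, against 1.77, 1.90 and 2.88 FPKM in Cxcr4- replicates 1 to 3. Of these, Col3a1, Sparc and Pdgfra were higher in every Cxcr4+ library than in any Cxcr4- library, as were 5.5% of all tested genes. Col1a1, Col1a2 and Dcn overlapped between the groups. The libraries numbered 2 in both groups stood apart: for 35.9% of the 16031 tested genes, both lay outside the range of the other 4. The log2 fold changes of the members that were tested are given with and without them.

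None of the 8 tested genes differed between Cxcr4+ and Cxcr4- macrophages past the test, while the levels of the 9 genes spanned a wide range in both populations. Lilrb4a, Lgals9 and Cd274 were abundant, Vsir and Sirpa intermediate, Havcr2, Cd200r1 and Nectin2 low, and Pdcd1lg2 was close to absent. Of the 8 genes with enough counts to be tested, 0 passed an adjusted p of 0.05 by edgeR's quasi-likelihood test, in which 0.0312% of all 16031 tested genes passed, and 0 had an unadjusted p under 0.05, against 4.85% of all tested genes. DESeq2 and limma-trend also called 0 of them, and 0.3% and 0.0125% of all genes they tested. With both libraries numbered 2 left out, edgeR again called 0 of the 8, and 0.0309% of all genes tested then. Of the 8, 3 had a log2 fold change above 0 and 5 one below it, and the median was -0.02 beside 0.00 for all tested genes.

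**Figure D1:**
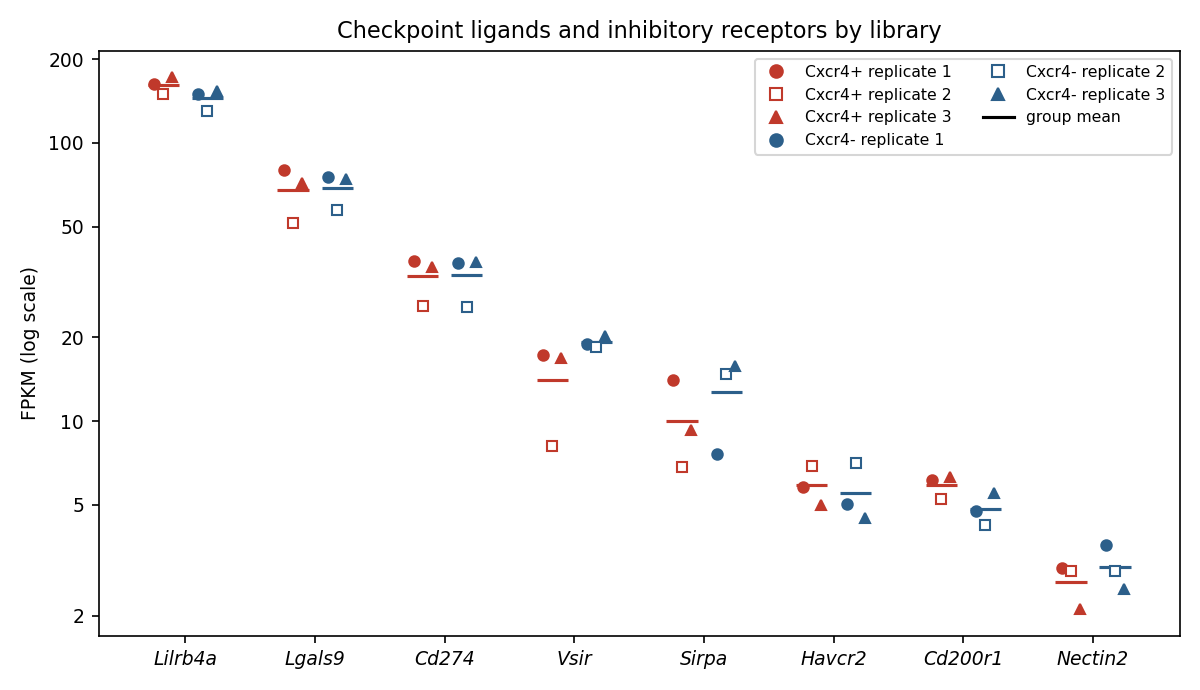
FPKM of the 8 tested genes in each library on a log axis, Cxcr4+ in red and Cxcr4- in blue, with the group mean as a bar and the libraries numbered 2 as open squares. The groups overlap for every gene but Vsir, and the open squares are the lowest points of Cd274 and Lgals9 in both groups.

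The order of levels can be read on the FPKM scale, which is per length. Lilrb4a had 153 ± 14.2 FPKM over the 6 libraries (SD, n = 6) and lay above Lgals9 (68.2 ± 11.2), which lay above Cd274 (33.3 ± 5.80), with no overlap of ranges between these neighbours. Cd274 in turn exceeded Vsir (16.7 ± 4.35) without overlap. Vsir exceeded Sirpa (11.4 ± 3.92) in 6 of 6 libraries although their ranges overlapped, and Sirpa exceeded Havcr2 (5.71 ± 1.06) in 5 of 6. Havcr2 and Cd200r1 (5.37 ± 0.795) could not be ordered, with Havcr2 higher in 3 of 6 libraries. Nectin2 (2.82 ± 0.493) was below Cd200r1 in 6 of 6. Among all tested genes, the mean FPKM stood at percentile 97.9 for Lilrb4a, 96.1 for Lgals9, 92.0 for Cd274 and 47.9 for Nectin2.

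Among the ligands, PD-L1 RNA was abundant in both populations. Cd274 (ENSMUSG00000016496; GRCm39 chromosome 19, 29344855 to 29365495, forward strand) had 37.7, 25.9 and 35.8 FPKM in Cxcr4+ replicates 1 to 3, against 37.1, 25.8 and 37.3 FPKM in Cxcr4- replicates 1 to 3. The library numbered 2 was the low one in each group, and the groups overlapped throughout. The means were 33.1 ± 6.36 FPKM in Cxcr4+ and 33.4 ± 6.60 FPKM in Cxcr4- macrophages (SD, n = 3 each). By edgeR the log2 fold change was -0.02, with an SE of 0.22 and an adjusted p = 1.0. Its 95% interval was -0.54 to 0.50, so folds between 0.69 and 1.41 are compatible with these values. Without the libraries numbered 2 the log2 fold change was -0.03. The predicted gene Gm36043 overlaps Cd274 on the opposite strand and held 2.39% as many counts, and whether the counting used strand is not given in the sources used here.

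PD-L2 RNA was almost undetected. Pdcd1lg2 (ENSMUSG00000016498), the gene next to Cd274 at 29388319 to 29448561, had 0, 4 and 0 counts in Cxcr4+ replicates 1 to 3, against 21, 0 and 0 counts in Cxcr4- replicates 1 to 3. The value passed the detection floor of 12 counts, taken as 3 fragments per library, in Cxcr4- replicate 1 alone, where it was 0.186 FPKM. The floor corresponds to 0.0937 to 0.113 FPKM, and covers counting error only. The long noncoding RNA gene A930007I19Rik overlaps Pdcd1lg2 on the opposite strand and had up to 37 counts in a library, 604% as many as Pdcd1lg2 over the 6 libraries, so without known strand use these reads cannot be assigned. Pdcd1lg2 did not pass the filter on low counts, so it was not tested and no fold is given. Both PD-1 ligands are known to be induced in macrophages, Cd274 by interferons and Pdcd1lg2 by interleukin-4, and in these libraries only Cd274 was abundant.

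Galectin-9 followed PD-L1 from library to library. Lgals9 (ENSMUSG00000001123; chromosome 11, 78853800 to 78875772, reverse strand) had 79.6, 51.5 and 71.9 FPKM in Cxcr4+ replicates 1 to 3, against 75.2, 57.2 and 74.0 FPKM in Cxcr4- replicates 1 to 3. As for Cd274, the library numbered 2 was the lowest of each group, and the groups overlapped. The log2 fold change was -0.03 (SE 0.21, 95% interval -0.52 to 0.46, adjusted p = 1.0 by edgeR), and 0.01 without the libraries numbered 2.

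Nectin2 (ENSMUSG00000062300; chromosome 7, 19450569 to 19483498, reverse strand) had 2.96, 2.88 and 2.11 FPKM in Cxcr4+ replicates 1 to 3, against 3.58, 2.88 and 2.5 FPKM in Cxcr4- replicates 1 to 3. The ranges overlapped, and the log2 fold change was -0.18 (SE 0.20, 95% interval -0.65 to 0.29, adjusted p = 1.0 by edgeR). It was -0.27 without the libraries numbered 2. In bulk samples fewer cells of a type and less RNA per cell cannot be told apart. Epithelial cells also make nectin-2. The epithelial marker sums lay lower on average in Cxcr4+ libraries, with overlapping ranges. They were 1.15, 2.18 and 2.45 FPKM in Cxcr4+ replicates 1 to 3, against 2.19, 4.24 and 4.50 FPKM in Cxcr4- replicates 1 to 3. Within each group these sums rose from replicate 1 to 3 while Nectin2 fell. Their part in the Nectin2 value was not tested.

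VISTA was the 1 gene of the 8 whose groups did not overlap, as was the case for 10.4% of all tested genes (4.87% lower and 5.5% higher in Cxcr4+). Vsir (ENSMUSG00000020101; chromosome 10, 60182630 to 60208463, forward strand) had 17.3, 8.12 and 16.9 FPKM in Cxcr4+ replicates 1 to 3, against 19.0, 18.5 and 20.2 FPKM in Cxcr4- replicates 1 to 3. All Cxcr4+ values lay below all Cxcr4- values, but Cxcr4+ replicate 2 lay far below the rest. The means were 14.1 ± 5.19 FPKM and 19.2 ± 0.867 FPKM (SD, n = 3 each), and an exact permutation test (two-sided) of the FPKM values gave p = 0.1, the lowest possible with 3 libraries a group. In edgeR the log2 fold change was -0.44 (SE 0.29, 95% interval -1.11 to 0.23, adjusted p = 0.999). It was -0.14 without Cxcr4+ replicate 2 and -0.20 without both libraries numbered 2 (adjusted p = 0.684 by edgeR), so 1 library set most of its size. Vsir lies within the span of Cdh23, a cadherin gene on the opposite strand, which held 1.36% as many counts.

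Among the receptors, gp49B was the most abundant. Lilrb4a (ENSMUSG00000112148; chromosome 10, 51367052 to 51372707, forward strand) had 163, 150.2 and 172 FPKM in Cxcr4+ replicates 1 to 3, against 149.8, 130.0 and 154 FPKM in Cxcr4- replicates 1 to 3. The Cxcr4+ values tended to the upper end of a shared range: replicate 2 of Cxcr4+ lay below replicate 3 of Cxcr4-. The means were 162 ± 10.9 and 145 ± 12.7 FPKM (SD, n = 3 each), with a log2 fold change of 0.16 (SE 0.12, 95% interval -0.13 to 0.44, adjusted p = 0.999 by edgeR) and an exact permutation p = 0.200. Without the libraries numbered 2 the log2 fold change was 0.13. Reads of this locus are uncertain. The predicted readthrough gene Gm49339 overlaps Lilrb4a on the same strand and held 17.7% as many counts, and the neighbouring Lilr4b encodes gp49A, a closely similar paired receptor. Lilr4b had 87.4, 73.9 and 86.9 FPKM in Cxcr4+ and 80.9, 64.1 and 104 FPKM in Cxcr4- libraries, a log2 fold change of -0.02 that took either sign across settings. With the 3 rows summed as 1 gene the log2 fold change was 0.10 (adjusted p = 1.0 by edgeR).

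The CD200 receptor had the largest positive log2 fold change of the 8. Cd200r1 (ENSMUSG00000022667; chromosome 16, 44586099 to 44615341, forward strand) had 6.15, 5.26 and 6.29 FPKM in Cxcr4+ replicates 1 to 3, against 4.77, 4.22 and 5.51 FPKM in Cxcr4- replicates 1 to 3. The groups overlapped through Cxcr4+ replicate 2, which lay below Cxcr4- replicate 3. The log2 fold change was 0.28 (SE 0.16, 95% interval -0.10 to 0.66, unadjusted p = 0.125, adjusted p = 0.999 by edgeR) and ran from 0.16 to 0.39 with 1 library left out. It was 0.27 without the libraries numbered 2. Of its paralogs, Cd200r4 had 3.29 to 4.86 FPKM in Cxcr4+ and 3.35 to 4.52 FPKM in Cxcr4- libraries, while Cd200r2 and Cd200r3 stayed under 0.5 FPKM.

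SIRP alpha varied widely within both groups. Sirpa (ENSMUSG00000037902; chromosome 2, 129434755 to 129474148, forward strand) had 14.0, 6.84 and 9.29 FPKM in Cxcr4+ replicates 1 to 3, against 7.63, 14.8 and 15.8 FPKM in Cxcr4- replicates 1 to 3. Cxcr4+ replicate 1 was high and Cxcr4- replicate 1 low for their groups, and the groups overlapped. The log2 fold change of -0.33 (SE 0.33, 95% interval -1.10 to 0.45, adjusted p = 1.0 by edgeR) was -0.66 without Cxcr4+ replicate 1 and -0.01 without the libraries numbered 2. The activating relatives Sirpb1a, Sirpb1b and Sirpb1c had at most 17 counts in a library.

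TIM-3 was the gene that stood high where PD-L1 stood low. Havcr2 (ENSMUSG00000020399; chromosome 11, 46345762 to 46372082, forward strand) had 5.81, 6.87 and 4.99 FPKM in Cxcr4+ replicates 1 to 3, against 5.03, 7.05 and 4.5 FPKM in Cxcr4- replicates 1 to 3. The library numbered 2 was the highest of each group, and the groups overlapped. The log2 fold change was 0.09 (SE 0.17, 95% interval -0.32 to 0.50, adjusted p = 1.0 by edgeR), and 0.17 without the libraries numbered 2.

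**Figure D2:**
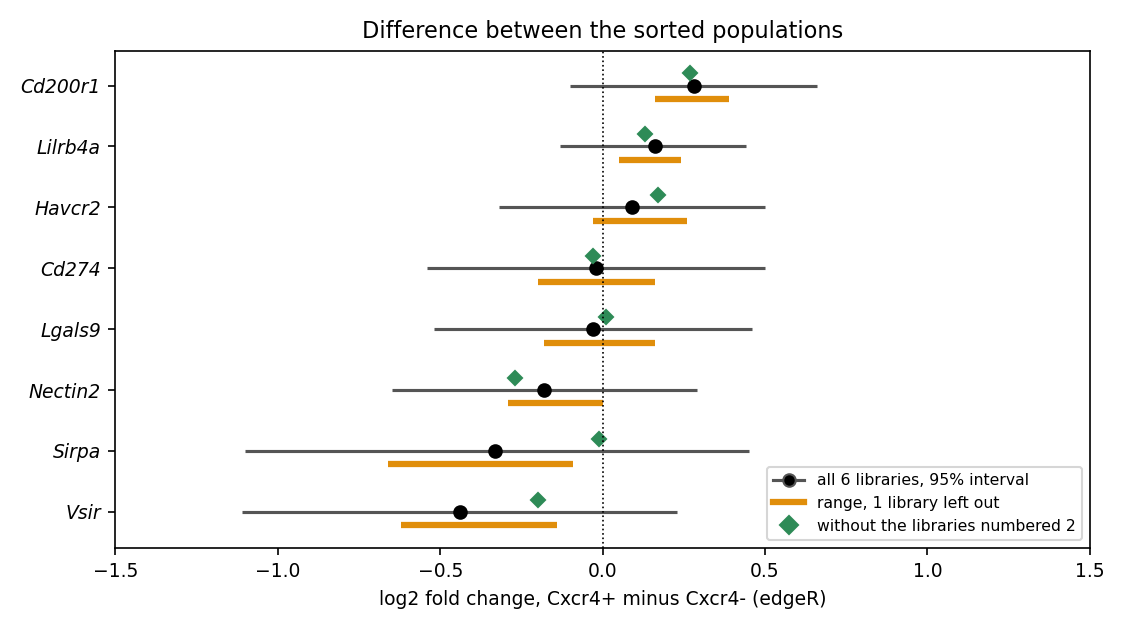
Log2 fold change of each tested gene, Cxcr4+ minus Cxcr4-, with its 95% interval from all 6 libraries (black points, grey lines), the range when 1 library was left out (orange bars) and the value without both libraries numbered 2 (green diamonds). Every 95% interval spans 0, from -1.11 to 0.23 for Vsir to -0.10 to 0.66 for Cd200r1.

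Cd274, Lgals9 and Havcr2 also parted the libraries by number. Cd274 averaged 25.8 FPKM in the 2 libraries numbered 2 and 37.0 FPKM in the other 4, a ratio of 0.698, and Lgals9 averaged 54.3 and 75.1 FPKM, a ratio of 0.723. For both genes the libraries numbered 2 lay below the other 4, as they did for 9.74% of all tested genes. Havcr2 averaged 6.96 FPKM in the libraries numbered 2 and 5.08 FPKM in the others, a ratio of 1.37, and lay above them, as did 26.2% of all tested genes. What the number stands for is not given in the labels, so these values describe the libraries and carry no test.

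Across the 6 libraries, the genes whose pattern was most like Cd274, among 5762 genes averaging 5 FPKM or more, were Bcl2l1, which encodes the survival protein Bcl-xL, Vps37c, of the endosomal sorting complex, and Akap10, an anchor of protein kinase A. Their Pearson r of log2(FPKM + 1) was 0.9959, 0.9946 and 0.9944 over the 6 libraries, which share the split by number, and 133 genes reached 0.95. Bcl2l1 had 82.6, 29.6 and 81.4 FPKM in Cxcr4+ replicates 1 to 3, against 86.8, 31.6 and 84.9 FPKM in Cxcr4- replicates 1 to 3. Among the other 7 tested genes of the set, r with Cd274 was 0.97 for Lgals9 and -0.88 for Havcr2, and between -0.08 and 0.69 for the remaining 5. No likeness is given for Pdcd1lg2, which had 0 counts in 4 of 6 libraries.

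**Figure D3:**
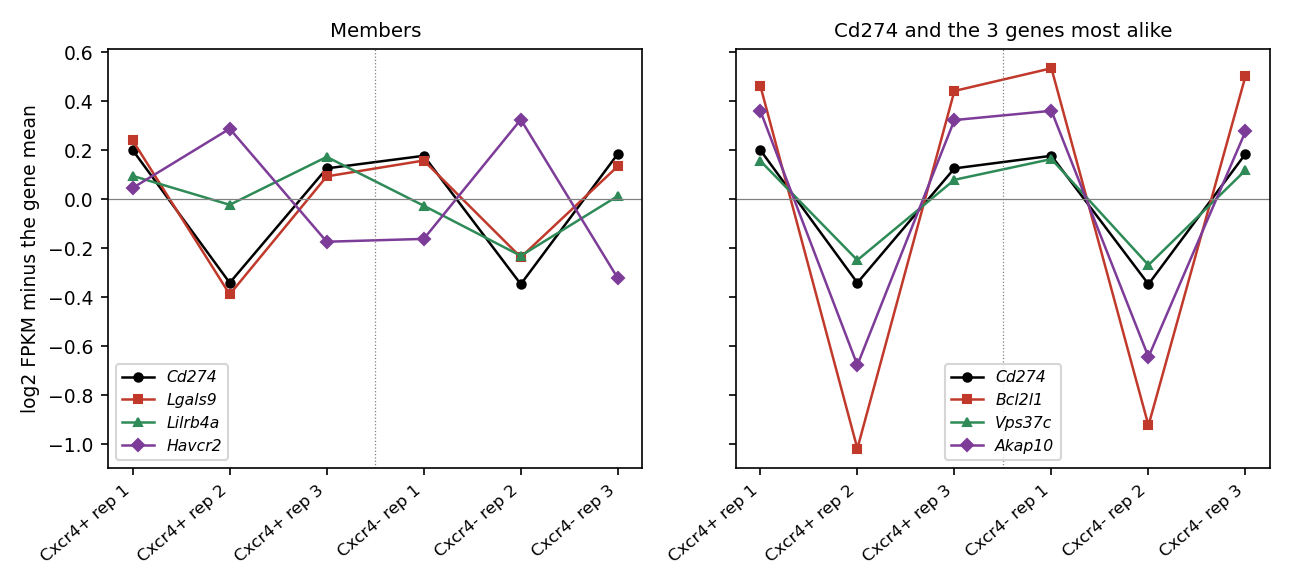
Log2 FPKM of each gene minus its mean over the 6 libraries, with Cxcr4+ libraries left of the dotted line. Cd274 and Lgals9 dip in both libraries numbered 2, Havcr2 peaks there, and Bcl2l1, Vps37c and Akap10 (right) share the dip.

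The sequences before the transcription start are shown for the pair that dipped together, for the gene that peaked, and for the near-silent neighbour of Cd274. They are the 250 bases upstream of the RefSeq start in GRCm38.p6, a different build from that of the counts, written 5′ to 3′ on the strand of the gene. Windows were matched for 6 of the 9 genes; Lilrb4a, Sirpa and Cd200r1 had none. Capitals mark matches on either strand to 4 motifs searched: the interferon-stimulated response element (GAAA, any 2 bases, GAAA), the interferon gamma activation site TTCNNNGAA, the PU.1 site GAGGAAGT and the AP-1 site TGANTCA. PU.1 is a macrophage lineage factor, and interferon motifs bind IRF and STAT factors.
Cd274 (chr19:29367188-29367437, forward strand): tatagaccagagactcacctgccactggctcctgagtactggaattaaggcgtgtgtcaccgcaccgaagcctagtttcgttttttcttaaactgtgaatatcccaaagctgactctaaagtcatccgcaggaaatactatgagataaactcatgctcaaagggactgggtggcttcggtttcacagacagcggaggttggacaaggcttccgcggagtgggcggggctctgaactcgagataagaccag
Pdcd1lg2 (chr19:29410669-29410918, forward strand): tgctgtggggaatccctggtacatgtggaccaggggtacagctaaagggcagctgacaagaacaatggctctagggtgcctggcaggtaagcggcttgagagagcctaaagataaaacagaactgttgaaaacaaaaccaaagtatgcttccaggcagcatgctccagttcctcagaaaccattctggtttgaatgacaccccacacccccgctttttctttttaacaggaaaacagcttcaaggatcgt
Lgals9 (chr11:78984925-78985174, reverse strand): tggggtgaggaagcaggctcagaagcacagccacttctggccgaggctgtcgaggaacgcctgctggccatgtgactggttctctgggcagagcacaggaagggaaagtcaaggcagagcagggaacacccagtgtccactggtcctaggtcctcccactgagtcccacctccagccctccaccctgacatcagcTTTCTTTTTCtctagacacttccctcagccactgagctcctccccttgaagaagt
Havcr2 (chr11:46454681-46454930, forward strand): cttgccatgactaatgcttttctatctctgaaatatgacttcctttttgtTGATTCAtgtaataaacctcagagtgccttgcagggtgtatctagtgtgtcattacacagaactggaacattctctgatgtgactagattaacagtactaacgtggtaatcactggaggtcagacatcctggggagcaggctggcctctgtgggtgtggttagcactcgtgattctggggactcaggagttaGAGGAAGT

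Lgals9 held 1 match to the interferon-stimulated response element, on the opposite strand, 55 to 46 bases before the start, and 2.98% of 32851 promoter windows hold one. Havcr2 held the PU.1 letters in its last 8 bases and the AP-1 letters 200 to 194 bases before the start, found in 2.44% and 6.75% of windows. None of the 4 motifs was found in the windows of Cd274, Pdcd1lg2, Vsir or Nectin2, which says only that these letters are not there. The activation site occurs in 7.02% of windows and in none of the 6. A match is a description of the letters.

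The binding partners of the 9 genes were measured in the same cells. PD-1 RNA was present: Pdcd1 had 4.39, 4.84 and 4.76 FPKM in Cxcr4+ replicates 1 to 3, against 3.04, 3.24 and 4.38 FPKM in Cxcr4- replicates 1 to 3. The groups did not overlap, by a margin of 4.39 over 4.38, and the log2 fold change by edgeR was 0.38, with an SE of 0.18 and an adjusted p = 0.999. Defining T cell markers were at or near 0 in every library, as given above. CD80, which binds PD-L1 on the same cell, had 8.92 to 10.2 FPKM in Cxcr4+ and 7.53 to 9.68 FPKM in Cxcr4- libraries. Cd47, the ligand of SIRP alpha, stood at 20.3 to 22.3 and 20.2 to 23.0 FPKM, while Cd200 had at most 8 counts in a library.

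For VISTA, both named partners were measured. Selplg, which encodes the selectin ligand PSGL-1, had 2.89, 2.85 and 1.79 FPKM in Cxcr4+ replicates 1 to 3, against 1.43, 1.53 and 1.42 FPKM in Cxcr4- replicates 1 to 3. All Cxcr4+ values lay above all Cxcr4- values, with means of 2.51 ± 0.627 and 1.46 ± 0.0599 FPKM (SD, n = 3 each). The log2 fold change was 0.77 (SE 0.20, unadjusted p = 0.00526), and it did not pass the threshold (adjusted p = 0.953 by edgeR, 0.140 by DESeq2). It was 0.70 without the libraries numbered 2. Igsf11, which encodes VSIG3, stayed under 1 FPKM in every library.

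For TIM-3, the adhesion molecule Ceacam1 had 2.82 to 4.27 FPKM in Cxcr4+ and 2.49 to 3.37 FPKM in Cxcr4- libraries, and Hmgb1, a chromatin protein released as an alarmin, 2.94 to 3.12 and 2.41 to 5.68 FPKM. The lymphocyte receptors of nectin-2, Tigit, Cd226 and Pvrig, had 0 counts in all 6 libraries, while Pvr, the sister ligand of nectin-2, had 5.48 to 6.80 and 5.12 to 6.86 FPKM. Fibronectin and apolipoprotein E are known ligands of human LILRB4. Fn1 had 4.47, 0.466 and 1.12 FPKM in Cxcr4+ replicates 1 to 3, against 0.223, 0.579 and 1.07 FPKM in Cxcr4- replicates 1 to 3. Its high value lay in the library with the most fibroblast markers, Cxcr4+ replicate 1, whose part in it was not tested. The Fn1 log2 fold change of 1.72 was 0.35 without that library. Apoe had 3.49, 3.87 and 3.56 FPKM in Cxcr4+ and 4.76, 4.64 and 4.25 FPKM in Cxcr4- libraries, without overlap (edgeR log2 fold change -0.33 with SE 0.13, adjusted p = 0.998).

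Around these genes, 116 others in 7 lists of the same pathways were read from the fit over all genes. Of the 88 that were tested, 0 passed by edgeR, beside 0.0312% of all tested genes. DESeq2 and limma-trend likewise called 0, beside 0.3% and 0.0125%. By edgeR 8 had an unadjusted p under 0.05, against 4.85% of all tested genes. The groups did not overlap for 13 of the 88, beside 10.4% of all tested genes.

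Among other ligands of the B7 and TNF families, 4 of 6 tested genes of 11 had a value above 0, and the median was 0.12. Tnfsf9, the ligand of 4-1BB, was the most abundant of them, with 36.6 to 67.6 FPKM in Cxcr4+ and 35.8 to 64.6 FPKM in Cxcr4- libraries. Cd86, the partner of Cd80 in T cell costimulation, stayed under 1 FPKM, at 0.470 to 0.835 FPKM in Cxcr4+ and 0.565 to 0.695 FPKM in Cxcr4- libraries. Cd276, which encodes B7-H3, was under 1 FPKM as well. Icosl, the ligand of ICOS, had 1.95 to 2.49 and 1.79 to 2.76 FPKM. Vtcn1, Tnfsf4 and Cd70 had 0 counts in every library.

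Of 22 genes listed as other inhibitory myeloid receptors, 16 were tested, with 9 positive and a median of 0.17. The list is broad and also holds Siglec1 and the paired receptor Lilr4b, so its median is not one of inhibitory receptors alone. Fcgr2b, the inhibitory Fc receptor, had 5.14, 6.70 and 6.39 FPKM in Cxcr4+ replicates 1 to 3, against 4.21, 5.61 and 4.95 FPKM in Cxcr4- replicates 1 to 3 (edgeR log2 fold change 0.30 with SE 0.13, adjusted p = 0.999). The ranges overlapped. The lectin receptor Clec12a had 1.05 to 2.19 FPKM in Cxcr4+ and 0.867 to 1.31 FPKM in Cxcr4- libraries. The collagen receptor Lair1 had 0.0423 to 0.0601 FPKM in Cxcr4+ and 0.0668 to 0.128 FPKM in Cxcr4- libraries, without overlap and with at most 55 counts in a library (edgeR log2 fold change -0.99 with SE 0.42, unadjusted p = 0.0487, adjusted p = 0.999). Pirb stayed under 0.2 FPKM and Pilra under 0.5 FPKM.

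Of 14 receptors that act on the T cell side, 6 were tested, with a median of -0.34. Apart from Pdcd1 and Tnfrsf9, which encodes 4-1BB and reached at most 1.61 FPKM, all were under 1 FPKM. Tnfrsf4, which encodes OX40, had 0.117 to 0.210 and 0.385 to 0.658 FPKM, with at most 51 counts in a library (adjusted p = 0.955 by edgeR). Its groups did not overlap, at levels near the floor.

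The signalling list behind inhibitory receptors was expressed throughout, with all 12 genes tested, 6 of them positive, and a median of -0.01. Cblb, a ubiquitin ligase that restrains lymphocyte activation, had 3.01, 2.76 and 2.84 FPKM in Cxcr4+ replicates 1 to 3, against 3.55, 3.69 and 3.29 FPKM in Cxcr4- replicates 1 to 3 (edgeR log2 fold change -0.29 with SE 0.10, adjusted p = 0.998). Ptpn2, a phosphatase that dampens JAK and STAT signalling, had 7.32 to 8.71 FPKM in Cxcr4+ and 6.04 to 7.09 FPKM in Cxcr4- libraries. Rasa1, a GTPase-activating protein for Ras, had 4.46 to 5.91 and 3.55 to 4.38 FPKM. The groups did not overlap for these 3 of the 12 genes, beside 10.4% of all tested genes. The 3 were named for their small p. Inpp5d, the phosphatase SHIP-1, had means of 16.5 and 18.8 FPKM, with overlapping ranges.

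The genes listed around interferon gamma signalling, Cd274 and the stability of its protein were all tested, 12 of 22 with a value above 0. Their median was 0.01. The list mixes activators with inhibitors such as Socs3, so its median is no measure of a pathway direction. Stat3, a transcription factor downstream of cytokine receptors, had 9.45 to 9.89 FPKM in Cxcr4+ and 10.4 to 11.1 FPKM in Cxcr4- libraries, without overlap (edgeR log2 fold change -0.16 with SE 0.07, adjusted p = 0.999). Irf1, the interferon-induced factor that drives Cd274, had 4.43, 3.80 and 3.83 FPKM in Cxcr4+ replicates 1 to 3, against 2.27, 3.98 and 3.82 FPKM in Cxcr4- replicates 1 to 3, which overlapped. Nlrc5, a regulator of class I genes, had 8.28 to 8.75 and 8.25 to 10.3 FPKM, and Csnk2a1, a casein kinase subunit, a highest value of 23.1 and 24.5 FPKM.

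Of 19 other suppressive enzymes and cytokines, 13 were tested, with 9 positive and a median of 0.06. Arg2, the mitochondrial arginase, had 11.3 to 13.8 FPKM in Cxcr4+ and 13.1 to 17.7 FPKM in Cxcr4- libraries. Vegfa, the vascular growth factor, had 19.6 to 23.8 and 23.9 to 25.2 FPKM, without overlap (edgeR log2 fold change -0.14 with SE 0.12, adjusted p = 1.0). The Vegfa value was -0.02 without Cxcr4+ replicate 2. Entpd1, the ectonucleotidase CD39, had 0.300 to 0.450 FPKM in Cxcr4+ and 0.194 to 0.285 FPKM in Cxcr4- libraries, without overlap (edgeR log2 fold change 0.48 with SE 0.29, adjusted p = 0.999). The Entpd1 value was 0.26 without Cxcr4+ replicate 3. Ptges, a prostaglandin E synthase, had 5.55 to 6.69 and 5.01 to 6.72 FPKM. In the list of 16 binding partners and further ligands, 7 of 13 tested genes were positive with a median of 0.02, and Cd24a, the ligand of Siglec-G, averaged 1.19 ± 0.273 FPKM in Cxcr4+ and 1.83 ± 0.672 FPKM in Cxcr4- libraries (SD, n = 3 each).

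**Figure D4:**
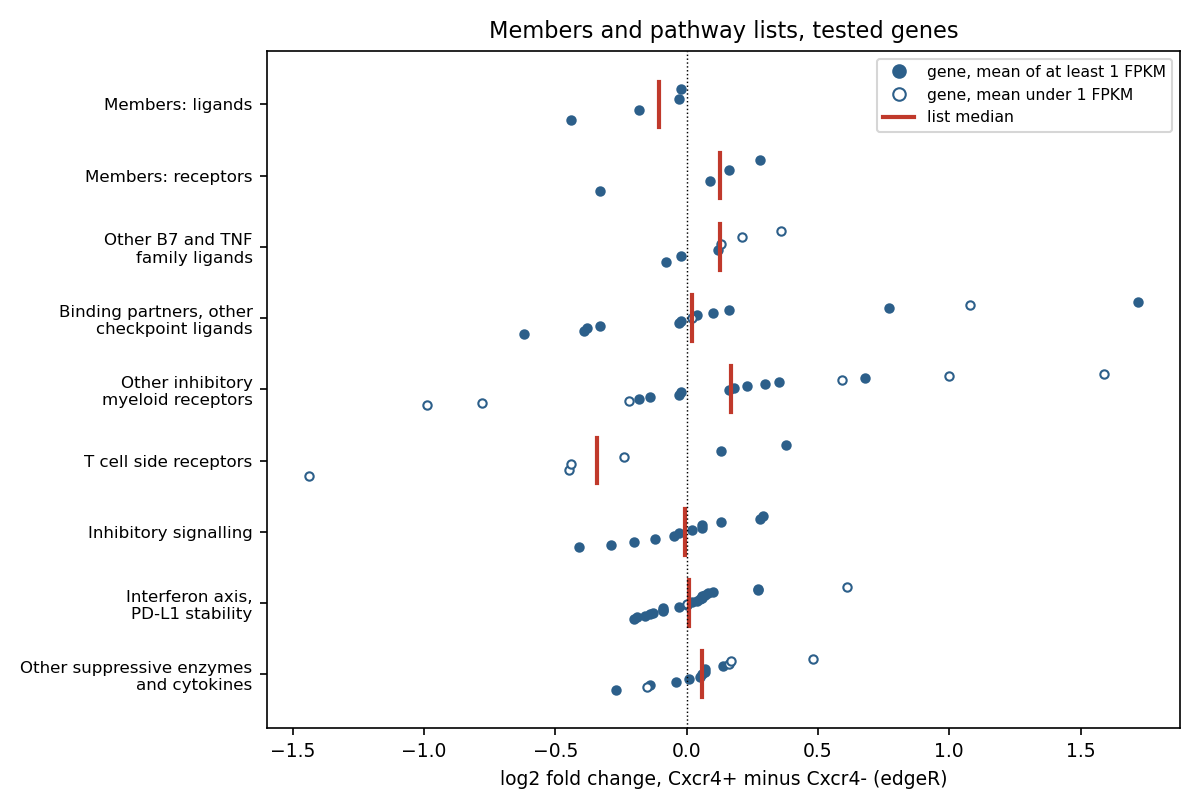
Log2 fold change, Cxcr4+ minus Cxcr4-, of every tested gene in the ligand and receptor sets and in the 7 pathway lists, with list medians in red and genes under 1 FPKM as open circles. The list medians lie between -0.34 and 0.17, and of the values farthest from 0 most are open circles, with Fn1 at 1.72 (0.35 without Cxcr4+ replicate 1) filled.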

How the data were processed

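The submitters' processing notes name the build GRCm39 and the tools cutadapt, HISAT2 and StringTie; their versions, the annotation release and the use of strand are not stated in these sources. What the authors deposited were estimated counts, all whole numbers, and FPKM for 53647 genes in 6 libraries; FPKM was read as 0 where the count was 0. Of counts from 1 to 20, 43.2% were multiples of 4, so the floor was set at 3 fragments, or 12 counts.

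Counts were fitted with edgeR 4.0.16 (R 4.3.3) by the quasi-likelihood test, legacy dispersion, TMM scaling and filterByExpr (minimum count 10, total 15), with group as the sole term and Benjamini-Hochberg adjustment over 16031 genes; the procedure was tested on simulated data. The standard error is the log2 fold change over the square root of F. Alternatives were DESeq2 1.42.0, limma 3.58.1 on log2 FPKM, other filters, scalings and blocks, and leaving out libraries. The members and lists were chosen with earlier results of these data known. Genes were named as members, their partners and close copies, the 4 tested genes of smallest p per list, and those most like Cd274. Names of genes at 0 or just under a level, of Tnfsf9, Siglec1 and single cell type markers, and the promoter motifs, were added after values were seen. Leaving out both libraries numbered 2 and summing the Lilrb4a locus were also added then. matplotlib 3.10.9 drew the figures.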

Additional observations from a re-analysis of the deposited data

How the results depend on the processing

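Of the 8 tested genes, 0 passed an adjusted p of 0.05 or of 0.10 in any setting tried. Over all genes 5 passed, against 53 by DESeq2, 2 and 1 by limma-trend on log2(FPKM + 1) and log2(FPKM + 5), and 1 to 9 with 1 library left out; the cause was not tested. Of 153 alternative log2 fold changes of the tested members, 144 kept their direction. With 1 library left out the value ran from -0.20 to 0.16 for Cd274, -0.18 to 0.16 for Lgals9, -0.29 to 0.00 for Nectin2, -0.03 to 0.26 for Havcr2, -0.62 to -0.14 for Vsir, -0.66 to -0.09 for Sirpa, 0.05 to 0.24 for Lilrb4a and 0.16 to 0.39 for Cd200r1. Among other named genes it ran from -0.04 to 0.00 for Cd47, -0.19 to 0.23 for Igsf11, -0.02 to 0.25 for Ceacam1, -0.12 to 0.04 for Pvr, -0.20 to 0.19 for Lilr4b, -0.08 to 0.35 for Gm49339, -0.25 to 0.88 for Cd200r2, -0.03 to 0.30 for Cd200r4, -0.05 to 0.39 for Cd276, -0.06 to 0.33 for Cd86, -0.27 to 0.06 for Icosl and -0.03 to 0.30 for Tnfrsf9, all of which changed sign. Without both libraries numbered 2 the sign turned for Lgals9 (0.01), Igsf11 (-0.25), Gm49339 (-0.01), Cd276 (-0.21) and Cd86 (-0.03). Lilr4b also turned with limma-trend at pseudocounts of 1, 0.1 and 5 (0.02, 0.02 and 0.01) and with the libraries numbered 2 as a block (0.00).

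The labels do not state that the replicate number pairs the libraries. Same-numbered libraries had correlations of their deviations of 0.038, 0.141 and 0.045, and differently numbered pairs ran from -0.089 to 0.052. Cxcr4+ replicates 2 and 3 each correlated best with the Cxcr4- library of their own number, and Cxcr4+ replicate 1 with Cxcr4- replicate 3 (0.052). A replicate block left 0 genes past the threshold, and so 0 of the 8 tested members. The members' log2 fold changes under that block were -0.02 for Cd274, -0.04 for Lgals9, -0.18 for Nectin2, -0.53 for Vsir, 0.10 for Havcr2, 0.16 for Lilrb4a, -0.35 for Sirpa and 0.29 for Cd200r1, and Lilr4b turned to 0.01. Unadjusted edgeR p fell under 0.05 there for Cd200r1 (0.0232) and Lilrb4a (0.0303). With the libraries numbered 2 as a block it did so for Cd200r1 (0.0183), Lilrb4a (0.0225) and Vsir (0.0345). The adjusted p of these values lay between 0.472 and 0.514. The share of all genes under 0.05 in these block fits is not given, so these p-values are not read as a result about the members. The depth limits Pdcd1lg2, which lies at the floor.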

Other observations

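Several genes around PD-L1 also parted the libraries numbered 2 from the other 4. Tnfsf9, the ligand of 4-1BB, averaged 36.2 FPKM in the libraries numbered 2 and 63.9 FPKM in the others (ratio 0.566). Socs3, a feedback inhibitor of cytokine signalling, averaged 16.4 and 29.1 FPKM (ratio 0.564), Ifngr2, the second chain of the interferon gamma receptor, 17.7 and 24.9 FPKM (ratio 0.713), and Ptgs2, the inducible cyclooxygenase, 7.76 and 17.8 FPKM (ratio 0.437). In the other direction, Ifngr1, the ligand-binding chain, averaged 4.56 FPKM in the libraries numbered 2 and 2.49 FPKM in the others (ratio 1.84), and Ptpn6, the phosphatase SHP-1, 91.1 and 72.7 FPKM (ratio 1.25). Of the 22 genes of the interferon axis list, 8 lay below the other libraries in both libraries numbered 2, beside 9.74% of all tested genes, and 4 lay above, beside 26.2%. The choice of these genes followed a look at their values, and the number is no condition of the study.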
